A study of Mus musculus with 13 samples.

Results

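Hearts of mice homozygous for the E3A allele of Cpt1b (genotype E3A/E3A) were compared with hearts of wild-type mice (WT/WT), 3 hearts against 3, among 13 hearts sequenced in all. The 6 hearts are those of both genotypes that the sample labels do not describe as a potential outlier. The labels give 2 further E3A/E3A hearts and 1 further WT/WT heart that description, without a reason, and these served as a check (5 against 4). The remaining hearts were heterozygous (WT/E3A replicates 1 to 4), and replicate 1 of these also carries that description. Heterozygous hearts did not enter the main comparison. All animals were male C57BL/6N mice, 13 weeks of age and on a chow diet. Poly(A) RNA from the heart was sequenced as 1 library per sample. Apart from genotype, a prefix in the library titles, described below, also differs between the groups. The labels name no promoter or tissue that limits the allele, so changes that begin in the heart and changes that begin in other tissues cannot be told apart. The comparison asks which transcripts differ when every copy of the gene encodes a CPT1B that malonyl-CoA inhibits less.

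Carnitine palmitoyltransferase 1B sits in the outer mitochondrial membrane of muscle and joins long-chain fatty acids to carnitine, which commits them to oxidation. Malonyl-CoA, made by acetyl-CoA carboxylase when glucose is plentiful, normally holds this enzyme back. The adult heart takes most of its energy from fatty acids, and many genes for their uptake and oxidation are switched on by PPAR alpha, a nuclear receptor that fatty acids themselves activate.

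Counted reads ranged from 23.7 M to 41.5 M per library, 14298 genes had enough reads to be tested, and the spread between hearts of a genotype, as edgeR's biological coefficient of variation, was 7.99%. The first principal component of the 6 libraries held 38.9% of the variance and did not separate the genotypes: E3A/E3A hearts scored between -13.3 and 19.9 on it and WT/WT hearts between -19.9 and 15.8. All 15 cardiomyocyte markers examined were detected, with the ventricular myosin gene Myh6 taking 3.90% to 4.26% of reads (6.59% to 9.26% in the 3 potential outlier hearts of these genotypes). Levels are given as CPM (each gene's share of the counted reads, scaled to a common total), and fold changes as log2 of E3A/E3A over WT/WT from edgeR with the standard error (SE). A gene is described as called, risen or fallen where its p, adjusted over all genes tested by the Benjamini-Hochberg method, was under 0.05. In whole-heart RNA, fewer cells of a type and less RNA per cell cannot be told apart.

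Reads of the gene that carries the allele were found in every heart. Cpt1b (chromosome 15, 89416405 to 89425862, GRCm38) stood at 3.69, 3.98 and 3.62 CPM in E3A/E3A replicates 3, 4 and 5, and at 3.03, 3.02 and 3.19 CPM in WT/WT replicates 2, 3 and 4. The groups did not overlap, but the difference did not pass (log2 0.29, SE 0.12, edgeR adjusted p = 0.575). Permuting the 6 hearts over all 20 splits, on log2(CPM + 0.1), gave an exact two-sided p = 0.1, the smallest possible. These levels rest on 72 to 139 reads per heart. The annotation holds a read-through transcript over Cpt1b and its neighbour Chkb. The sources used here do not say which gene received reads in that overlap, and the true level of Cpt1b mRNA is therefore uncertain. A count per gene does not show the altered codon and is no check of which allele a heart carried.

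In E3A/E3A hearts edgeR called 32 of the 14298 genes (0.224%), of which 25 were lower (0.175%) and 7 higher (0.049%). Members of lists on fatty acid handling and peroxisomes made up most of the genes that fell. Of the 25, 15 belong to 8 lists covering fatty acid uptake, activation, transport, oxidation and storage, and peroxisome biogenesis. These lists were written with earlier results of these data known and together held 141 tested genes. They hold 0 of the 7 genes that rose. Most changes were small: 20 of the 25 fell by between 0.24 and 0.65 on the log2 scale, and 5 (Slc9a9, Pde11a, Acot1, Fbp2 and Alox5) fell by 0.90 or more. The 7 genes that rose did so by 0.37 to 0.71. Whether a gene passed depended on single hearts. Without E3A/E3A replicates 3, 4 or 5, edgeR called 20, 5 and 29 genes, and without WT/WT replicates 2, 3 or 4 it called 50, 7 and 4. Slc9a9, Alox5, Acot1 and Decr1 were called in all 6 of these fits, and all 32 genes kept their direction in each. The other 28 lost their call in 2 to 6 of the fits, with edgeR adjusted p of up to 0.354.

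Library titles carry a prefix that may mark a batch, and it is unevenly spread over the genotypes. E3A/E3A replicates 3 and 5 and WT/WT replicate 2 have prefix C3, E3A/E3A replicate 4 has C4, and WT/WT replicates 3 and 4 have C6. Within C3, which shares its 3 hearts with the comparison (2 against 1), the 32 called genes all differed in the same direction as in the 6 hearts. Sharing these hearts nearly fixes that direction: it was also kept by all 483 lower and all 669 higher genes with an unadjusted p under 0.05, and by 10802 of the 14298 genes tested. The count of 32 is therefore no separate evidence. With the prefix as a block, which leaves WT/WT replicate 2 as the only wild-type heart that informs the contrast, edgeR called 0 genes, with 897 at an unadjusted p under 0.05 against 1152 without the block. The other tests were not run with the block over these 6 hearts.

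**Figure D1:**
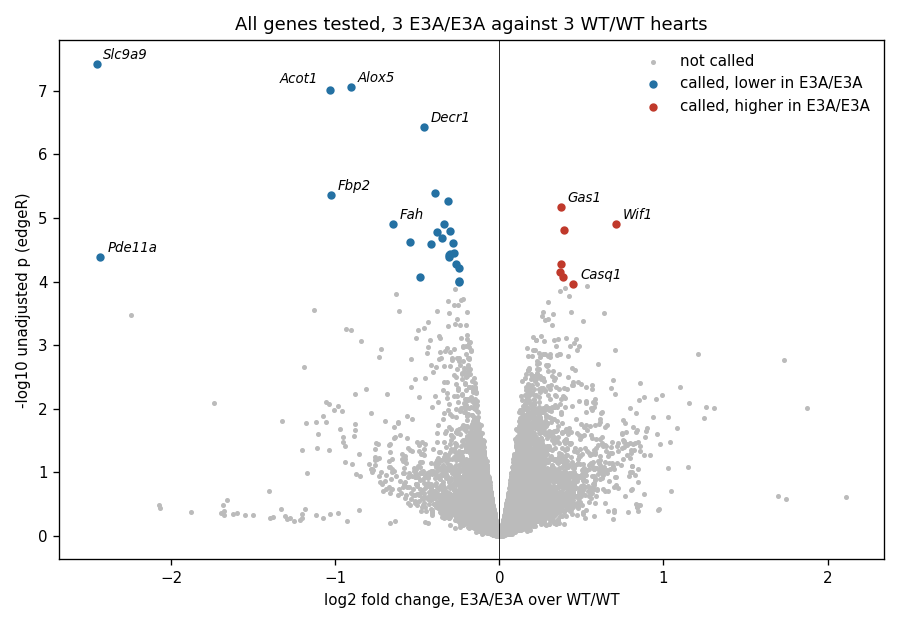
Each point is 1 of the 14298 genes tested, with the log2 fold change of E3A/E3A over WT/WT on the horizontal axis and -log10 of edgeR's unadjusted p on the vertical axis. The 25 genes called lower (blue) lie on the left and the 7 called higher (red) on the right, with Slc9a9, Alox5, Acot1 and Decr1 at the top.

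Among enzymes of beta-oxidation, Decr1 had the lowest edgeR adjusted p, and Ech1 followed at nearly the same value as Hadhb (given below). Decr1 (chromosome 4, 15917240 to 15945377), the mitochondrial dienoyl-CoA reductase that removes a double bond ordinary beta-oxidation cannot process, stood at 370, 372 and 352 CPM in the E3A/E3A hearts and at 494, 514 and 499 CPM in the WT/WT hearts. Every E3A/E3A heart was below every WT/WT heart, and the mean fell by 27.4% (log2 -0.46, SE 0.04, edgeR adjusted p = 0.00131). Ech1 (chromosome 7, 28825338 to 28832239), a dienoyl-CoA isomerase that shifts double bonds into place, had 1188, 1195 and 1099 CPM against 1469, 1548 and 1551 CPM. It fell by 0.39 (SE 0.05, edgeR adjusted p = 0.0104), again without overlap. Etfdh, which passes the electrons of beta-oxidation into the respiratory chain, fell by 0.24 (adjusted p = 0.0339), from 810 CPM in the WT/WT hearts (SD 6.12, n = 3) to 684 CPM in the E3A/E3A hearts (SD 14.8). The list of unsaturated fatty acid oxidation and electron transfer held 7 tested genes. All 7 had lower values in E3A/E3A, 3 were called, and the other 4 (the isomerases Eci1 and Eci2 and the flavoprotein subunits Etfa and Etfb) had unadjusted p under 0.05. Over all genes tested that threshold was met by 3.38% lower and 4.68% higher. The list's median log2 fold change was -0.20, beside 0.001 for all genes tested.

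Of the 14 genes of the core beta-oxidation spiral tested, 4 fell, by 0.25 to 0.38 on the log2 scale. Hadha and Hadhb encode the subunits of the mitochondrial trifunctional protein, which carries out the last reactions of each round on long chains. Hadha stood at 1780, 1798 and 1727 CPM in E3A/E3A and at 2099, 2237 and 2205 CPM in WT/WT (log2 -0.30, SE 0.04, edgeR adjusted p = 0.0168). Hadhb stood at 1001, 984 and 982 CPM against 1245, 1236 and 1206 CPM (log2 -0.31, SE 0.04, edgeR adjusted p = 0.0109). In neither gene did the groups overlap. Hadha fell by 18.9% and Hadhb fell by 19.5%, and their log2 values lay within an SE of each other. Acaa2, the thiolase that releases acetyl-CoA, fell by 0.38 (adjusted p = 0.0168), from 1066 to 818 CPM. Hadh, the hydroxyacyl-CoA dehydrogenase for shorter chains, fell by 0.25 (adjusted p = 0.0471), from 794 to 669 CPM. The acyl-CoA dehydrogenases, which take the first step of each round, did not pass. Acadvl, for very long chains, had a log2 value of -0.22 (adjusted p = 0.0681), Acadl, for long chains, -0.20 (adjusted p = 0.0859) and Acadm, for medium chains, -0.18 (adjusted p = 0.148), each with every E3A/E3A heart below every WT/WT heart. Of the 14 core genes, 13 had lower values, with a median of -0.19. Echs1, the hydratase, and Hsd17b10 had values close to 0.

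Hadha and Hadhb lie head to head on chromosome 5, Hadha ending at 30154980 on the reverse strand and Hadhb starting at 30155253 on the forward strand (GRCm38.p6). Only 272 bases separate the annotated genes. That shared stretch is shown because both genes read out from it and both fell; 250 bases ending directly before Hadhb (chr5:30155003-30155252, forward strand, RefSeq, GRCm38.p6) are given with no base marked.
Hadha-Hadhb: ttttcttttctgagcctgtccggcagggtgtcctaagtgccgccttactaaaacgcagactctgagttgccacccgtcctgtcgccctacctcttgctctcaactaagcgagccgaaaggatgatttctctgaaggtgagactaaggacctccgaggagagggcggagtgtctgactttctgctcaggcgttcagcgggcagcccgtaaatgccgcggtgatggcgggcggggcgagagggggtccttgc

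In the carnitine shuttle, only the inner-membrane carrier was called. Slc25a20, the carrier that exchanges acylcarnitine for carnitine, stood at 171, 185 and 167 CPM in E3A/E3A and at 216, 225 and 224 CPM in WT/WT. It fell by 0.35 (SE 0.05, edgeR adjusted p = 0.0196), with no overlap. Cpt2, which returns the acyl group to CoA inside the mitochondrion, lay just outside the threshold at -0.27 (adjusted p = 0.0526), with 265 against 319 CPM and no overlap. Crat, the acetyltransferase, had -0.23 (adjusted p = 0.14) and Cpt1a, the CPT1 form typical of liver that the heart also makes, -0.19 (adjusted p = 0.275). Of the 8 shuttle genes tested, 6 had lower values, 1 was called and the median was -0.17. Cpt1b, whose true level is uncertain (above), and Cpt1c were the members with higher values.

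**Figure D2:**
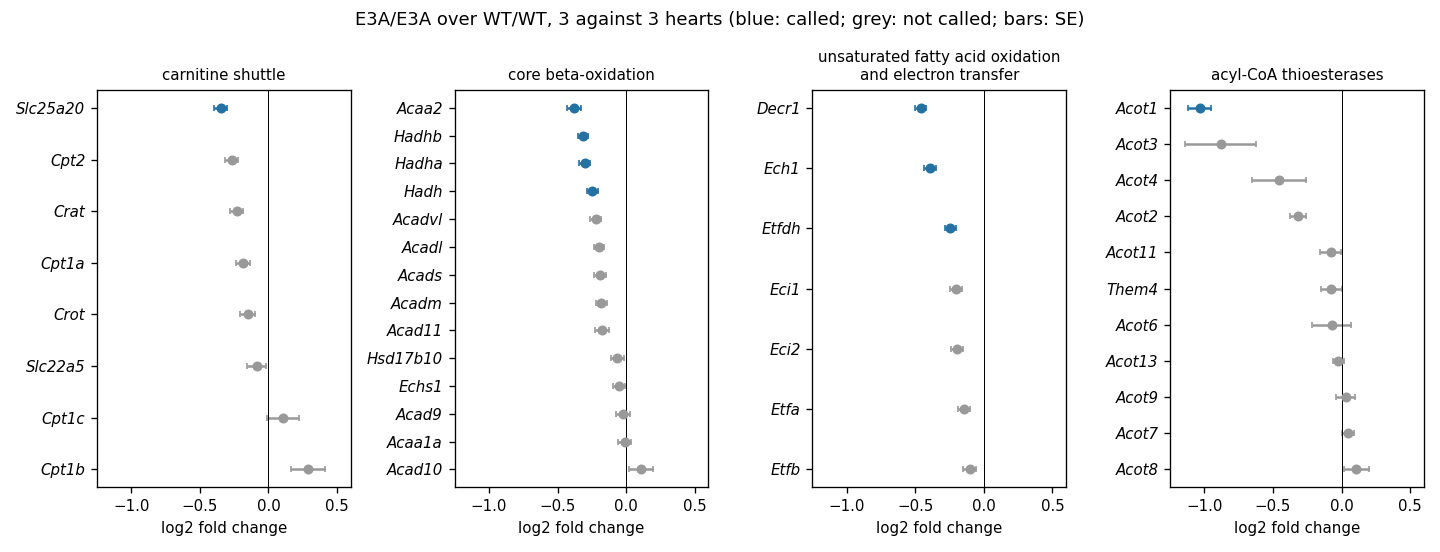
Points give the log2 fold change of E3A/E3A over WT/WT with its SE for each tested gene of 4 lists, blue where called and grey where not. Nearly all genes of the core beta-oxidation and unsaturated fatty acid lists lie left of 0 by 0.5 or less, Acot1 lies at -1.03, and Cpt1b lies right of 0 with one of the wider error bars.

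Among the enzymes that set the pool of acyl-CoA, the largest relative fall was in Acot1. Acot1 (chromosome 12, 84009502 to 84017670), a cytosolic thioesterase that splits long-chain acyl-CoA, stood at 6.71, 7.44 and 7.70 CPM in E3A/E3A and at 14.6, 14.7 and 15.3 CPM in WT/WT. Its level fell by 51.2% (log2 -1.03, SE 0.08, edgeR adjusted p = 0.000463), and the highest E3A/E3A heart was far below the lowest WT/WT heart. Its near-identical neighbours may share its reads, which makes the split between them uncertain. Acot2, the mitochondrial form, had -0.32 (adjusted p = 0.0699), Acot3 -0.88 (adjusted p = 0.304) and Acot4 -0.46 (adjusted p = 0.591), and each was lower in all E3A/E3A hearts. The other 7 thioesterases tested overlapped between the groups. Acsf2, an acyl-CoA synthetase, fell by 0.49 (adjusted p = 0.042), from 45.5 to 32.4 CPM. Acsl1, the main long-chain synthetase of the heart, had -0.18 (adjusted p = 0.15).

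Genes that bind fatty acids or turn them into stored lipid fell at single steps. Fabp3, the fatty acid binding protein of heart muscle, stood at 1116, 1168 and 1045 CPM in E3A/E3A and at 1359, 1371 and 1394 CPM in WT/WT (log2 -0.31, SE 0.05, edgeR adjusted p = 0.0257). The groups did not overlap. Gpam, the mitochondrial acyltransferase that begins glycerolipid synthesis, fell by 25.0% (log2 -0.41, SE 0.06, edgeR adjusted p = 0.02), from 250, 273 and 275 CPM in WT/WT to 191, 192 and 216 CPM. Me1, the cytosolic malic enzyme that makes NADPH for lipid synthesis, fell by 0.30 (adjusted p = 0.0257). Scd4, a stearoyl-CoA desaturase found mainly in heart, had a log2 value of -1.13 that did not pass (adjusted p = 0.0859). The uptake transporter Cd36 and the lipase Lpl had -0.19 and -0.20 (adjusted p = 0.157 and 0.157). Of 16 uptake and binding genes tested, 9 had lower values (median -0.05), and of 31 genes of triglyceride synthesis, droplets and lipolysis 19 did (median -0.04), with 1 called in each list.

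Peroxisomes shorten very long fatty acids and detoxify the hydrogen peroxide this makes. Cat, the catalase that removes hydrogen peroxide, stood at 201, 212 and 206 CPM in E3A/E3A and at 253, 249 and 248 CPM in WT/WT (log2 -0.28, SE 0.04, edgeR adjusted p = 0.0257). Ephx2, the soluble epoxide hydrolase, which opens epoxides of fatty acids, stood at 226, 233 and 218 CPM against 276, 292 and 287 CPM (log2 -0.34, SE 0.04, edgeR adjusted p = 0.0163). In both genes every E3A/E3A heart was below every WT/WT heart. Hsdl2, a dehydrogenase-family protein, fell by 0.28 (adjusted p = 0.02). Of 48 peroxisomal genes tested, 40 had lower values and 4 were called (Ech1 among them, which is shared with the unsaturated list). In this list 16 lower and 0 higher genes had an unadjusted p under 0.05, beside 3.38% and 4.68% over all genes tested. The peroxisomal median was small, -0.08.

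The list of PPAR alpha targets held 11 of the 25 genes that fell. Of its 34 tested members, 31 had lower values, 26 of them with an unadjusted p under 0.05 (beside 3.38% over all genes tested). The list's median was -0.25. All 11 called members also belong to the lipid lists above (28 of the 34 do), so these counts are not separate evidence. Pdk4 and Ucp3, members that did not pass, varied between hearts. Pdk4, which turns down pyruvate oxidation, stood at 263, 282 and 1225 CPM in E3A/E3A and at 652, 410 and 508 CPM in WT/WT, with E3A/E3A replicate 5 highest of the 6. Ucp3, a mitochondrial carrier, stood at 37.4, 34.8 and 73.4 CPM against 86.5, 70.7 and 70.4 CPM, where the same heart overlapped the wild-type range (log2 -0.66, adjusted p = 0.738). The receptor gene Ppara itself averaged 166 CPM in E3A/E3A (SD 46.5, n = 3), with 147 CPM in WT/WT (SD 11.6), and Ppargc1a, its coactivator, had 405 CPM in E3A/E3A replicate 5 and 154 to 175 CPM in the other hearts.

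PPAR alpha with its partner RXR binds paired copies of the letters AGGTCA, so promoter windows (250 bases before to 50 after a transcript start, RefSeq, GRCm38.p6) were searched on both strands for a single exact copy. The search left out the chromosome that carries Acaa2, with 390 genes tested, so windows there were not counted. Of the 25 genes that fell, 21 had a searched window and 2 of these held the letters (9.52%). Of the genes that rose, 6 had a searched window and 0 of these held the letters. The share was 14.9% among the 10656 tested genes with a searched window. The 2 windows with a copy belong to Gpam (chr19:55099638-55099703, reverse strand, a copy 196 bases before a transcript start) and Cat (chr2:103485322-103485387, reverse strand, 204 bases before). The Gpam stretch lies inside its annotated gene (55067635 to 55127319), before an internal start. The Cat stretch lies outside its gene (103453904 to 103485153). Both stretches are shown because both genes fell, with the copy in capitals.
Gpam: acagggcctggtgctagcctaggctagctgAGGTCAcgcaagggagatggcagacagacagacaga
Cat: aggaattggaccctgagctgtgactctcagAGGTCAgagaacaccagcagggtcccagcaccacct

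Genes outside the lipid lists above included the largest falls. Slc9a9 (chromosome 9, 94669557 to 95230453), a sodium-proton exchanger of endosomes, stood at 0.769, 0.592 and 0.559 CPM in E3A/E3A and at 3.62, 3.52 and 3.60 CPM in WT/WT. It fell by 81.8% (log2 -2.46, SE 0.18, edgeR adjusted p = 0.000463), with a gap between the groups many times the spread within them. Alox5 (chromosome 6, 116410071 to 116461178), the lipoxygenase that starts leukotriene synthesis, stood at 13.8, 14.1 and 14.98 CPM against 24.8, 28.7 and 26.8 CPM. It fell by 46.6% (log2 -0.90, SE 0.07, edgeR adjusted p = 0.000463). Fbp2, the muscle fructose bisphosphatase that reverses a committed step of glycolysis, stood at 16.7, 15.9 and 13.1 CPM against 28.0, 35.1 and 31.0 CPM (log2 -1.03, SE 0.11, edgeR adjusted p = 0.0104). Fah, the last enzyme of tyrosine breakdown, had 15.3, 14.6 and 12.2 CPM against 22.04, 21.04 and 23.04 CPM (log2 -0.65, SE 0.09, edgeR adjusted p = 0.0163). None of these 4 genes overlapped between the groups. Scn4a, a muscle voltage-gated sodium channel, had 45.4, 53.6 and 47.2 CPM against 65.2, 75.4 and 72.7 CPM (log2 -0.54, SE 0.07, edgeR adjusted p = 0.02). Its partner Scn4b, an accessory subunit, had 33.9 against 64.9 CPM with no overlap but did not pass (log2 -0.93, adjusted p = 0.117). Pde11a, a cyclic nucleotide phosphodiesterase, fell by 2.43 (adjusted p = 0.0257) on only 192 reads in the 6 libraries. Stom, a membrane scaffold protein, and Creg1, a lysosomal glycoprotein, fell by 0.31 and 0.26 (adjusted p = 0.0257 and 0.0303).

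**Figure D3:**
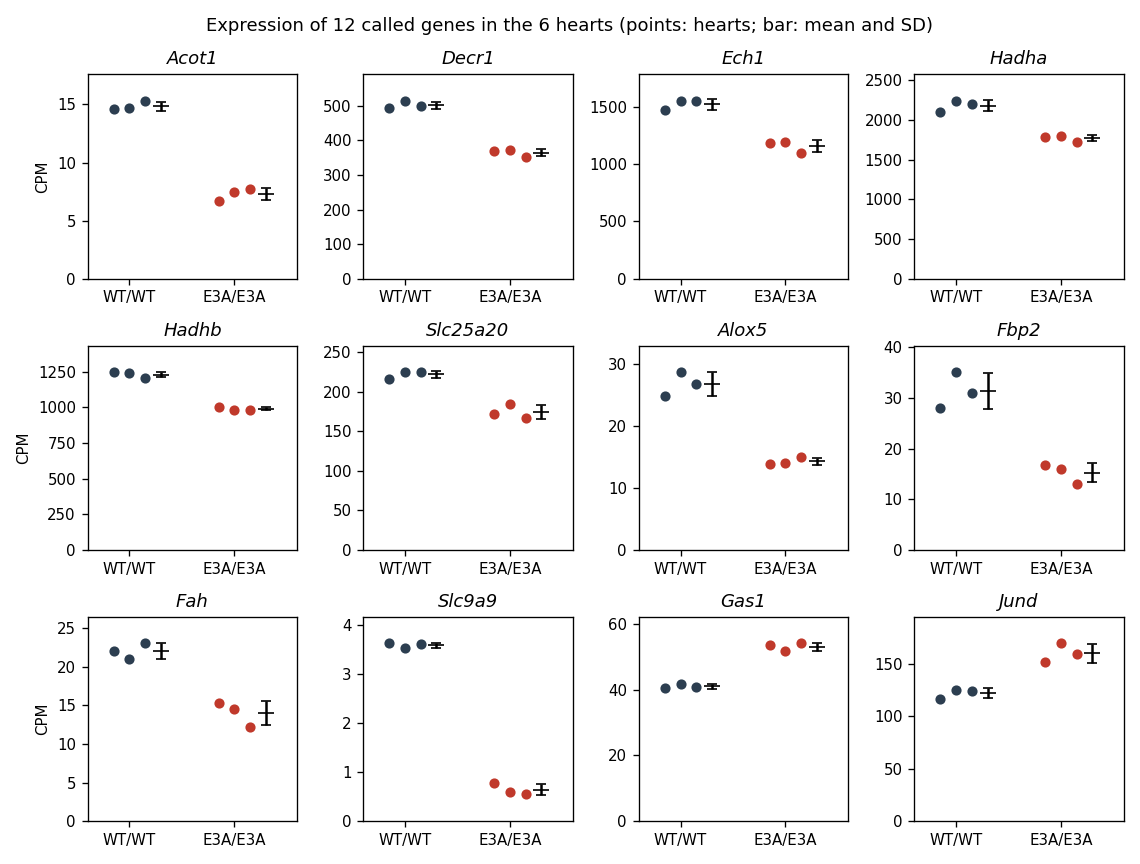
CPM of 12 called genes in each heart (points), with the mean and SD of each group of 3 beside them and a vertical axis that starts at 0. In all 12 panels the E3A/E3A and WT/WT points are separate: 10 genes are lower in E3A/E3A, Slc9a9 by the largest factor, and Gas1 and Jund are higher.

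Of the 7 genes that rose, Gas1 and Nrtn share the list of growth factors and ErbB, and the other 5 each belong to a different list. In that list 35 of the 53 genes tested had higher values, 2 were called and the median was 0.06. Gas1, a membrane protein that binds Hedgehog ligands, stood at 53.6, 51.8 and 54.1 CPM in E3A/E3A and at 40.5, 41.8 and 40.8 CPM in WT/WT (log2 0.37, SE 0.05, edgeR adjusted p = 0.0119). Wif1, a secreted inhibitor of Wnt ligands, stood at 11.6, 11.02 and 11.7 CPM against 7.58, 7.08 and 6.31 CPM (log2 0.71, SE 0.09, edgeR adjusted p = 0.0163). Jund, a transcription factor of the AP-1 family, stood at 151, 169 and 159 CPM against 116, 125 and 124 CPM (log2 0.39, SE 0.05, edgeR adjusted p = 0.0168). All 3 genes were higher in every E3A/E3A heart than in any WT/WT heart. Nrtn (neurturin, a ligand that supports neurons) and Mesdc1 (an actin-binding protein) each rose by 0.37 (adjusted p = 0.0303 and 0.0375). Pi16, a secreted protein typical of fibroblasts, rose by 0.39 (adjusted p = 0.042), and Casq1, the calsequestrin typical of skeletal muscle, rose by 0.45 (adjusted p = 0.0486).

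Connective-tissue and actin genes had mostly higher values with few calls. Of 57 extracellular matrix genes tested, 53 had higher values, 30 with an unadjusted p under 0.05 (beside 4.68% over all genes tested). However, edgeR called 0 in this list, and the median was 0.16. Timp2, a protease inhibitor, had 136 against 112 CPM (log2 0.28, adjusted p = 0.0993), and Col1a1, a fibrillar collagen chain, 205 against 178 CPM (log2 0.20, adjusted p = 0.172). All 19 fibroblast markers had higher values (median 0.14), and Pi16 was the 1 called. Of 55 genes of actin, adhesion and SRF targets, 49 had higher values (median 0.12) and Mesdc1 was called. Of 45 immediate early genes, which are switched on quickly by stimulation, 41 had higher values (median 0.36) and Jund was called. Nr4a2, a nuclear receptor of that group, stood at 10.7, 12.7 and 9.81 CPM against 3.52, 6.83 and 4.46 CPM and did not pass (log2 1.21, adjusted p = 0.168). Among cardiac stress genes 20 of 24 had higher values (median 0.15) and 0 were called; Nppa, the atrial natriuretic peptide, had 228 against 142 CPM (log2 0.68, adjusted p = 0.665), and Nppb 139 against 98.6 CPM (log2 0.49, adjusted p = 0.667).

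Summed levels of markers of 3 other cell types were higher in E3A/E3A, although edgeR called 1 of the 19 fibroblast markers tested (Pi16) and 0 endothelial or epicardial ones. Summed over 19 fibroblast markers, levels were 3859 to 4171 CPM in E3A/E3A and 3595 to 3722 CPM in WT/WT, and over 17 endothelial markers 2971 to 3112 against 2808 to 2931 CPM. The 13 epicardial markers summed to 27.3 to 34.8 against 22.2 to 25.9 CPM. None of these ranges overlapped, and no defining marker of the 3 types was at 0. In the 3 potential outlier hearts the fibroblast and endothelial medians had the opposite sign (-0.095 and -0.091), and with the prefix block on 9 libraries they were -0.009 and -0.014. The part of these cell types in the higher values of matrix, actin and Pi16 transcripts was not tested. Of 15 atrial and pacemaker markers 14 had higher values (median 0.51, between 0.09 and 0.64 with single libraries left out) and 0 were called; their sums overlapped, 1150 to 1627 against 996 to 1187 CPM, with E3A/E3A replicate 5 highest. The 15 cardiomyocyte markers summed to 108873 to 108920 CPM in E3A/E3A and 102360 to 107899 CPM in WT/WT, also higher without overlap. The 13 white adipocyte markers, a list that includes the cardiac genes Cd36 and Fabp4, were lower without overlap. They summed to 2251 to 2372 against 2524 to 2677 CPM. Adipoq, which defines fat cells, was at or below 0.465 CPM in all 6 hearts.

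Other arms of energy metabolism had 0 or 1 genes called in each list. Oxidative phosphorylation had 78 nuclear genes tested, of which 55 had lower values, but the median was -0.02 and edgeR found 0 with an unadjusted p under 0.05. In the tricarboxylic acid cycle 20 of 22 genes had lower values, with a median of -0.06 and 0 called (2 at an unadjusted p under 0.05). Branched-chain amino acid breakdown had 0 called, but 24 of 25 genes had lower values, 12 with an unadjusted p under 0.05 and 17 without overlap. Over all genes tested, 49.4% had lower values, 3.38% were lower at that threshold and 6.99% lower without overlap. The branched-chain median of -0.10 was no smaller in size than the peroxisomal -0.08. In the 3 potential outlier hearts 10 of the 25 branched-chain genes were lower. Glycolysis had a median of 0.03, and Fbp2 was the only gene of its 25 called. Genes of malonyl-CoA synthesis and removal did not pass: Acaca, an acetyl-CoA carboxylase, had a log2 value of 0.24 (adjusted p = 0.466), Acacb, the form at the mitochondrion, -0.10 (adjusted p = 0.789) and Mlycd, which breaks malonyl-CoA down, -0.13 (adjusted p = 0.69). Slc2a4, the insulin-sensitive glucose transporter, had 537 against 507 CPM (adjusted p = 0.696). Ribosomal proteins of the cytosol and of mitochondria had medians of 0.01 and -0.001.

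**Figure D4:**
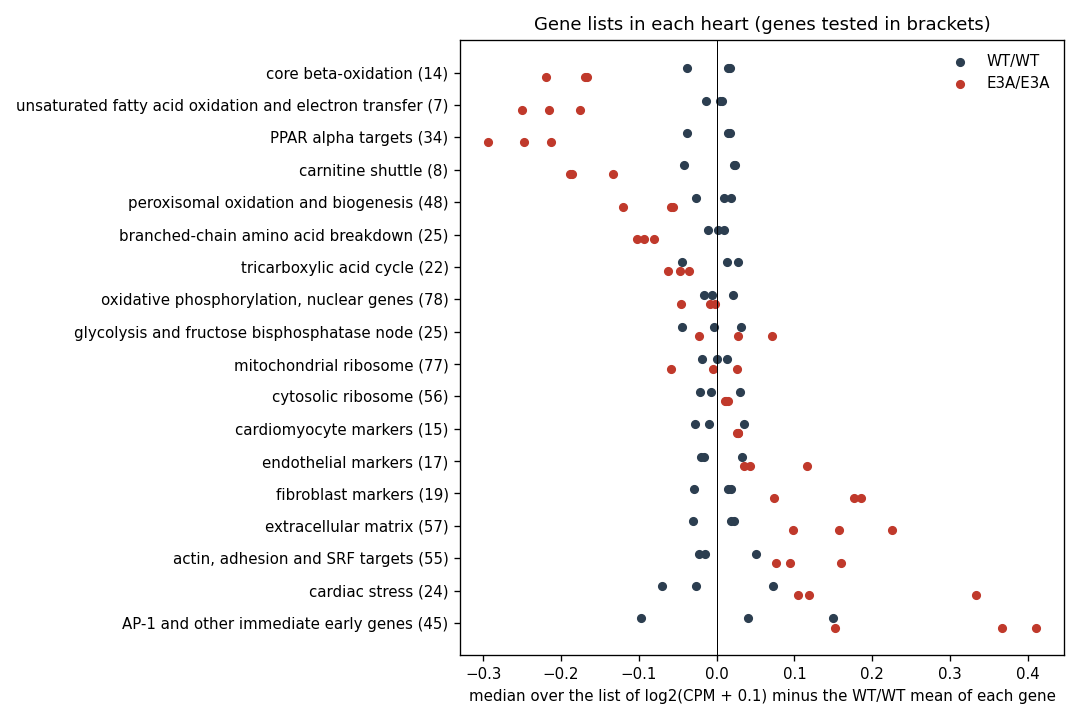
For each of 18 gene lists, points give the median over the list of log2(CPM + 0.1) minus the WT/WT mean of each gene, 1 point per heart. The E3A/E3A hearts lie left of all WT/WT hearts for the oxidation, PPAR alpha, peroxisomal and branched-chain lists, and right of them for fibroblast, extracellular matrix and actin lists, while oxidative phosphorylation, glycolysis and ribosomal lists overlap.

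Non-overlap of 3 against 3 hearts was common in itself: 1025 genes (7.17%) were higher and 999 (6.99%) lower in every E3A/E3A heart. Among the genes just past the threshold were Casq1 (adjusted p = 0.0486) and Hadh (adjusted p = 0.0471). Those just outside it were Spock2, a matrix proteoglycan, with a log2 value of 0.53 (adjusted p = 0.0505), Lsp1, an actin-binding protein of leukocytes, with 0.40 (adjusted p = 0.0526), Cpt2 (given above), F13a1, the coagulation factor made by macrophages, with 0.37 (adjusted p = 0.0549), and Plbd1, with -0.63 (adjusted p = 0.0601). By position, the called genes were spread over the genome, with at most 3 on a chromosome and 0 of the 555 tested on chromosome 15, where Cpt1b lies.

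The hearts described as potential outliers give the same contrast in animals that the comparison did not use, 2 E3A/E3A against 1 WT/WT, all with title prefix C2. Of the 25 genes that fell, 20 were lower in E3A/E3A there too (80%), with a median log2 difference of -0.32, and of the 7 that rose 2 were higher (28.6%). Over all genes tested, 47.2% had the same direction in both sets. White adipocyte markers differed more in these 3 hearts, with 10 of 11 tested lower in E3A/E3A and a median log2 difference of -1.36, and their part in the lower values was not tested. Acot1 stood at 10.4 and 8.07 CPM in these E3A/E3A hearts and at 26.3 CPM in the WT/WT heart, Alox5 at 16.6 and 12.2 against 27.0 CPM, and Fbp2 at 18.6 and 17.7 against 39.5 CPM, all scaled over the 9 libraries of both genotypes. Decr1 differed little (301 and 362 against 351 CPM). Among the fallen genes that went the other way were Slc9a9, at 3.01 and 2.66 against 1.94 CPM, and Hadhb, at 506 and 721 against 448 CPM. Among genes that rose, Wif1 and Casq1 were again higher, whereas Jund stood at 184 and 205 against 363 CPM and Nrtn at 35.2 and 40.1 against 70.1 CPM. With a single wild-type heart these differences have no test of their own.

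**Figure D5:**
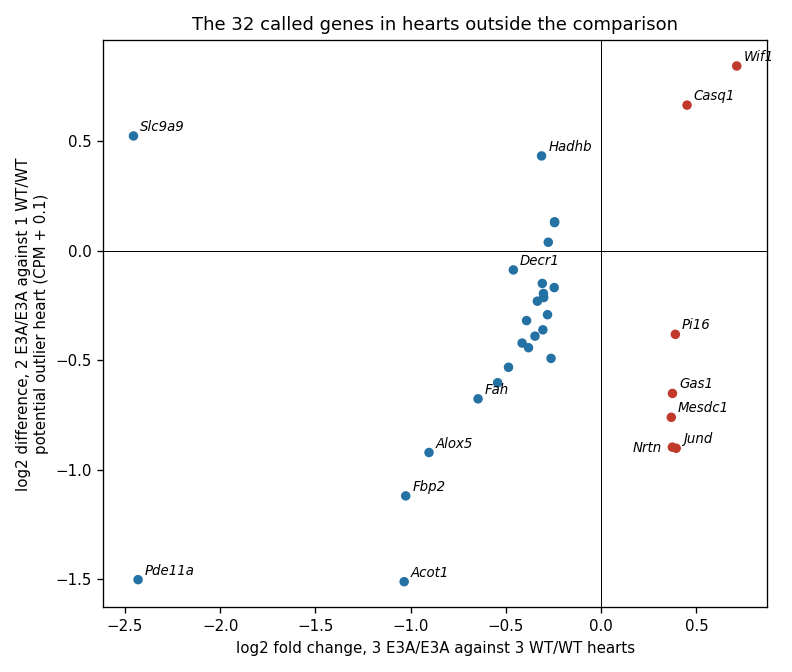
Each point is 1 of the 32 called genes, with its log2 fold change in the 6 hearts on the horizontal axis and its log2 difference, 2 E3A/E3A against 1 WT/WT potential outlier heart, on the vertical axis. Most genes that fell (blue) lie below 0 on both axes, and Slc9a9 and Hadhb are among those above 0 on the vertical axis. On that axis 5 of the 7 genes that rose (red) lie below 0.

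With those hearts added back, 5 against 4, edgeR called 0 of 14361 genes (0%), and 155 had an unadjusted p under 0.05. Sample quality weights in limma-voom gave 57 calls on the same 9 libraries, 24 of them among the 32. With the label as a covariate, 8 genes passed (0.0557%), 7 of them among the 32: Acot1, Fbp2, Alox5, Wif1, Scn4a, Fah and Pde11a. Their log2 values under that fit were -1.19, -1.06, -0.90, 0.76, -0.56, -0.65 and -2.15. The effect of genotype differed between the hearts with and without the label for 2372 of the 14361 genes (16.5%) in edgeR's interaction test, in which the lone wild-type heart with the label is assumed to vary like the others. List medians in the 5 against 4 fit were -0.26 for PPAR alpha targets, -0.17 for core beta-oxidation, -0.18 for unsaturated fatty acid oxidation, 0.06 for extracellular matrix and 0.08 for actin genes. In the 3 potential outlier hearts alone they were -0.07, -0.19, -0.09, -0.14 and -0.07, so that the matrix and actin lists had the opposite sign there. Of the PPAR alpha targets 19 of 34 were lower in those hearts, and of the core genes 8 of 14, fewer than the 31 and 13 in the 6 hearts.

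Heterozygous hearts (WT/E3A, 3 hearts without the outlier label) were not used to choose the called genes. Their mean lay between the means of the E3A/E3A and WT/WT hearts for 32 of the 32 called genes, beside 33.7% of all genes tested. Genes were called for having homozygous groups far apart, so another value falls between them more readily, and the 2 shares are not like for like. The WT/E3A means were also scaled over another set of libraries than the homozygous means, which can shift the shares and the position. The median position of the heterozygous mean, from 0 at WT/WT to 1 at E3A/E3A, was 0.499 for the called genes. Over all genes tested it was 0.512, so a position near the middle is not particular to the called genes. Acot1, for example, averaged 11.1 CPM in WT/E3A hearts, Decr1 431 CPM and Alox5 21.5 CPM.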

How the data were processed

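Poly(A) RNA of mouse hearts was sequenced as single-end reads. The submitters' processing notes name the aligner STAR 2.4.0, the read counter featureCounts 1.4.4 and the mm10 (GRCm38) build. Settings for strand and for reads with several matches are not given in the sources used here. Deposited values are raw counts per gene symbol, 24061 symbols per heart, with 0 pairs of identical files. Genotype and the outlier description came from the sample labels. Separate animals are implied by separate samples but not stated, so p-values measure the spread between these samples.

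Counts of the 6 libraries were filtered with filterByExpr, scaled by TMM and tested with edgeR 4.0.16 (robust quasi-likelihood F test, R 4.3.3). CPM is TMM-scaled over those 6, and over the 9 libraries of both genotypes for the potential outlier hearts. For WT/E3A hearts it is TMM-scaled over the 9 libraries of all genotypes without the outlier label. Differences without a test used log2(CPM + 0.1). Depth of 23.7 M to 41.5 M reads limits precision for genes at a few CPM, and errors cover counting and the spread between hearts only, since no molecular identifiers are mentioned.

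The comparison, the gene lists and the named genes (every called gene, lowest-p and called list members, and a fixed set of metabolic and cardiac genes) were chosen with earlier results of these data known, so list counts are descriptions and no set test was run. Lists share members. Some genes that the rule names are counted but not reported here by name. Alternatives were other scalings and filters, DESeq2 1.42.0, limma-voom (limma 3.58.1), a shared spread with WT/E3A, the potential outliers added back, the title prefix as a block, and each library left out. Symbols were matched to RefSeq positions (13528 directly, 714 by an older symbol, 56 not), and protein sequences were not used here.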

Additional observations from a re-analysis of the deposited data

Results flagged for a closer look

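For 8 of the 32 called genes, the effect of genotype in the hearts labelled potential outlier (2 against 1) differed from that in the other 6 by edgeR's interaction test, which had 14361 genes. The interaction, as the log2 effect in labelled hearts minus that in the rest, was 3.01 for Slc9a9 (edgeR adjusted p = 0.00112), 0.77 for Hadhb (adjusted p = 0.0232) and 0.37 for Etfdh (adjusted p = 0.0354), all genes that fell in the 6 hearts. It was -1.03 for Gas1, -1.30 for Jund, -1.27 for Nrtn, -1.11 for Mesdc1 and -0.76 for Pi16, which rose there (adjusted p from 0.00112 to 0.0124). These are 5 of the 7 genes that rose and 3 of the 25 that fell, beside 2372 of all 14361 genes (16.5%). For the genes that fell the share is no higher than that background, and whether it differs between risen and fallen genes was not tested. The wild-type side of that difference is WT/WT replicate 1 alone, which the test assumes to vary like the other hearts, and what set it apart was not tested.

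Cpt1b was uneven among all 4 WT/WT hearts. WT/WT replicate 1 stood at 1.59 CPM against 2.85 to 3.01 CPM in the other 3, and its gap to the nearest of them was 0.884 of the group's range, which Dixon's criterion for 4 samples marks as an outlier. Chance marks about 1 in 20 groups. That heart is labelled potential outlier, and Cpt1b was also lower in the labelled E3A/E3A hearts. E3A/E3A replicates 1 and 2 stood at 2.96 and 2.39 CPM, against 3.42 to 3.77 CPM in E3A/E3A replicates 3, 4 and 5. With the labelled hearts included, the 5 E3A/E3A hearts averaged 3.20 CPM of Cpt1b (SD 0.540) and the 4 WT/WT hearts 2.58 CPM (SD 0.664). Permuting these 9 hearts over all 126 splits gave an exact two-sided p = 0.183.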

How the results depend on the processing

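All 32 called genes kept their direction under other scalings, filters and tests on the 6 libraries, and 26 did so under all 20 alternatives. The count of calls moved more than 1.5 times from 32 (7 higher, 25 lower) in several. It was 55 (21 higher) with no filter on low counts, 88 (31 higher, 57 lower) with DESeq2, and 57 (21 higher) with quality weights on 5 against 4; without robust estimation 4 were higher. It was 8 (1 higher, 7 lower) with the label as a covariate, 1 (0 higher, 1 lower) with all 13 libraries, and 0 in both directions with the outliers added back and under the title prefix block, on 6 or on 9 libraries (edgeR, with 155, 897 and 1124 genes at an unadjusted p under 0.05). Leaving out 1 library gave 4 to 50 calls, 0 to 12 higher and 4 to 38 lower, and of the 32 calls 19, 27 and 12 were lost without E3A/E3A replicates 3, 4 and 5 and 2, 27 and 28 without WT/WT replicates 2, 3 and 4. Each of these fits had an arm of 2 hearts and so fewer degrees of freedom, and why their counts differed was not tested.

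Directions reversed where the outliers were added back. With the prefix block on 5 against 4, log2 values were 0.05 for Hadhb, -0.15 for Gas1, -0.29 for Jund, -0.30 for Nrtn, -0.24 for Mesdc1 and -0.02 for Pi16. In the plain 5 against 4 fit, and likewise with all 13 libraries, they were -0.07 for Jund, -0.10 for Nrtn and -0.01 for Mesdc1, and with the label as a covariate -0.03 for Jund and -0.06 for Nrtn. No paired analysis was possible because the labels give no replicate numbers that pair hearts across genotypes. Depth limits Pde11a, with 192 reads in all, Cpt1b, and Slc9a9, which was at or below 0.769 CPM in the E3A/E3A hearts.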
